A study of Mus musculus with 12 samples.

Results

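Cells take up fatty acids in a chain of steps. Lipoprotein lipase frees fatty acids from triglycerides outside the cell, membrane proteins such as CD36 and the fatty acid transport proteins help them across, small binding proteins carry them through the cytosol, and acyl-CoA synthetases activate them by joining them to coenzyme A. Muscle burns these fatty acids and fat cells store them, and the nuclear receptor PPARγ, which drives fat cell formation, is known to regulate several genes of the chain.

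The genes described here are the 10 listed symbols *Lpl*, *Cd36*, *Slc27a1*, *Slc27a4*, *Fabp3*, *Fabp4*, *Fabp5*, *Acsl1*, *Acsl3* and *Acsl4*, each matched by its Ensembl ID among the 46983 genes with deposited values. The rule that lists them names their symbols and holds no measured value. The 10 genes were chosen with earlier results of these data known, so counts called among them are a description. The filter on low values kept 18023 genes, those that reached an FPKM of 0.1 in 3 or more libraries, and all 10 passed it. *Fabp4* passed it through its PPARγ/+ libraries alone, so the filter kept it because of its values in those cells. As the filter removed none of the 10, counts over them are over all 10.

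The samples were C2C12 cells, a mouse myoblast line that fuses into myotubes on differentiation. PPARγ/+ cells carried the PiggyBac vector PB-IP with the PPARγ coding sequence and were selected with puromycin. The WT samples are named after that vector and labelled wild type, and whether they held it without an insert or were selected is not stated. Both were sequenced undifferentiated (0d) and on the fifth day of differentiation (5d), which gives 4 groups of 3 libraries and 12 libraries in all. The series text also speaks of inducible cells with uninduced controls, and the labels do not say how that maps onto the WT and PPARγ/+ groups. The study's results speak of biological triplicates, but the labels do not say whether the 3 libraries of a group came from separate cultures, so the p-values measure only the spread between these libraries.

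The deposited values are FPKM, the fragments on a gene per kilobase of its length, scaled to the mapped fragments of the library. A library held between 15557874 and 22013295 fragments on genes, recovered from the FPKM as whole numbers. Differences were fitted with limma on log2(FPKM + 0.1), a scale that understates the differences of genes with low values. Within a cell type a gene was called when it differed 2-fold or more and its unadjusted p did not exceed 0.05. Between the cell types the same limits held for the adjusted p, and in the interaction the adjusted p alone decided. An exact permutation of 3 libraries against 3 cannot give a p under 0.1, so no such test was used. A p that missed its threshold does not show that 2 groups were alike. By chance, 2 groups of 3 libraries show no overlap for 10% of genes, so a lack of overlap alone is a weak sign of a difference.

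*Pparg* (ENSMUSG00000000440) lies on chromosome 6 at 115360951 to 115490399 of GRCm38. Its FPKM in the 3 replicates was 7.56, 5.10 and 6.92 in WT cells on 0d and 3.12, 3.53 and 4.59 on 5d. The PPARγ/+ libraries stood at 44.4, 28.0 and 46.4 on 0d and 40.1, 44.1 and 92.7 on 5d. Every PPARγ/+ library was above every WT library, and the difference was called on 0d (log2 change 2.57, 95% interval 1.98 to 3.15, adjusted p of limma 0.0115) and on 5d (3.85, 3.01 to 4.69, adjusted p 0.0379). On 5d it was 4.003 without replicate 3 of WT cells, 3.47 without that of PPARγ/+ cells and 3.62 without both, called in each.

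Some libraries stood apart from their group. Replicate 3 of WT cells on 5d differed most from the mean of the other 2 of its group, by a root mean square of 0.658 on the log2 scale over the genes tested. The other 11 libraries lay between 0.463 and 0.579. The muscle marker list holds *Myod1*, *Myog*, *Mymk*, *Myh3*, *Ckm*, *Acta1*, *Des* and *Tnnt3*, of which 8 of 8 were tested and *Acta1* was the most abundant. Its summed FPKM was 4566, 3565 and 1051 in the WT libraries on 5d, so replicate 3 was the lowest. It was 166, 304 and 124 in WT cells on 0d, where replicate 2 was the highest. The PPARγ/+ libraries summed to 59.0, 68.3 and 96.0 on 0d and 1142, 1302 and 1345 on 5d. *Myog* followed the same order in WT cells on 5d, at 271, 215 and 90.0 FPKM, and *Ckm* stood at 67.8, 39.2 and 12.04.

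Replicate 3 of PPARγ/+ cells on 5d had the highest *Pparg* value. The adipocyte list holds *Adipoq*, *Plin1*, *Cidec*, *Lep*, *Cfd* and *Retn*, of which 4 of 6 were tested, *Adipoq* was the most abundant and *Lep* was at 0 in every library. Its summed FPKM was 9.17, 15.2 and 57.2 in PPARγ/+ cells on 5d and 3.10, 1.33 and 2.18 on 0d. It was 0, 0.0372 and 0.0586 in WT cells on 0d and 0.0538, 0.0561 and 0.0372 on 5d. *Adipoq* alone stood at 8.03, 12.7 and 40.5 FPKM in PPARγ/+ cells on 5d, and *Cfd* at 0.313, 1.11 and 12.3. The part of the muscle and adipocyte markers in the results that follow was not tested, and values without 1 or both of these libraries are given beside the calls that changed without them, for the 10 genes and the other genes of the pathway. In bulk RNA, fewer cells of a kind and less RNA per cell cannot be told apart.

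Markers of 2 other cell types that use this pathway were checked as well. Of the endothelial list (*Pecam1*, *Cdh5*, *Tie1*, *Tek*, *Kdr*, *Cldn5*, *Emcn*) 1 of 7 was tested, *Tek* was the most abundant, *Tie1* was at 0 in every library and the summed FPKM lay between 0.0224 and 0.375 over the 12 libraries. Of the macrophage list (*Ptprc*, *Adgre1*, *Csf1r*, *Cd68*, *Lyz2*, *C1qa*, *Aif1*) 2 of 7 were tested, *Cd68* was the most abundant, *C1qa* was at 0 in every library and the summed FPKM lay between 3.04 and 8.22. Both ends of that range were WT libraries of 5d, which stood at 3.04, 4.48 and 8.22, in the reverse order of the muscle markers. The sum is mostly *Cd68* and *Lyz2*. In no library did *Ptprc* exceed 0.00649, *Adgre1* 0.0143 or *Csf1r* 0.0771 FPKM.

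**Figure D1:**
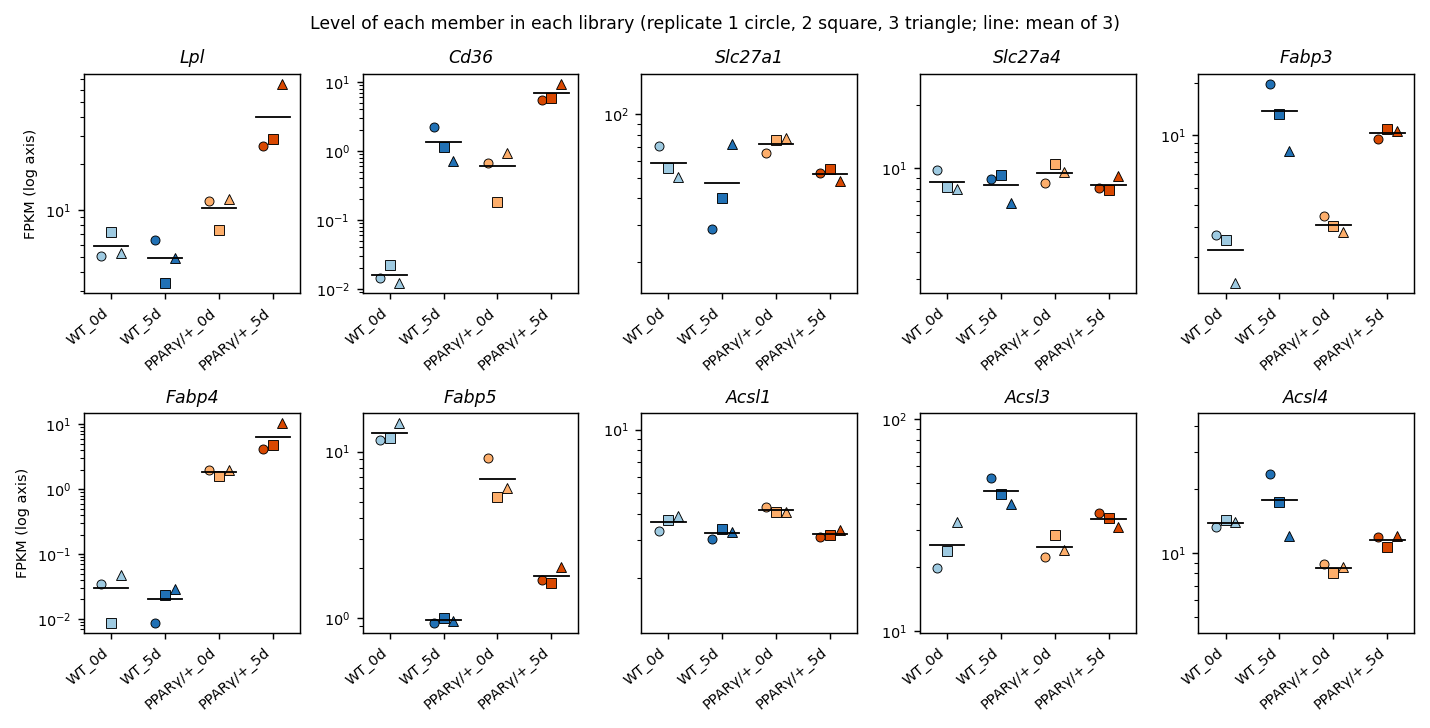
FPKM of each of the 10 genes in each library on a log axis, with a circle for replicate 1, a square for 2, a triangle for 3 and a line at the group mean. The 3 PPARγ/+ libraries on 5d lie above all others for *Lpl*, *Cd36* and *Fabp4*, and *Fabp5* is lower on 5d than on 0d in both cell types.

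The first comparison asks which genes of the chain changed as WT cells differentiated. Of the 10 genes, 3 were called, *Fabp3* and *Cd36* up and *Fabp5* down, beside 16.5% of all genes tested. The second asks the same in PPARγ/+ cells, where 5 of 10 were called, *Fabp3*, *Fabp4*, *Cd36* and *Lpl* up and *Fabp5* down, beside 15.2% of all genes. The third compares PPARγ/+ with WT cells on 0d, where 1 of 10 was called, *Fabp4* as higher, beside 1.59% of all genes. The fourth makes that comparison on 5d, where 1 of 10 was called, again *Fabp4*, beside 0.155%. Both counts rest on *Fabp4*, which passed the filter through its PPARγ/+ libraries alone. They describe that gene and not the 10 as a set. Without the filter these 2 counts were the same, beside 0.394% and 0.133% of 27138 genes. The last, the interaction, asks whether differentiation changed a gene by different amounts in WT and PPARγ/+ cells, and 1 of 10 was called, *Fabp5*, beside 0.760%. These comparisons share libraries, so their calls are not independent of each other. The median log2 change of the 10 genes stood at -0.08 in WT and 0.43 in PPARγ/+ cells, beside -0.08 and -0.10 over all genes tested. Between the cell types it was 0.25 on 0d and 0.13 on 5d, beside 0.02 over all genes on both days, and in the interaction -0.05 beside -0.01.

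**Figure D2:**
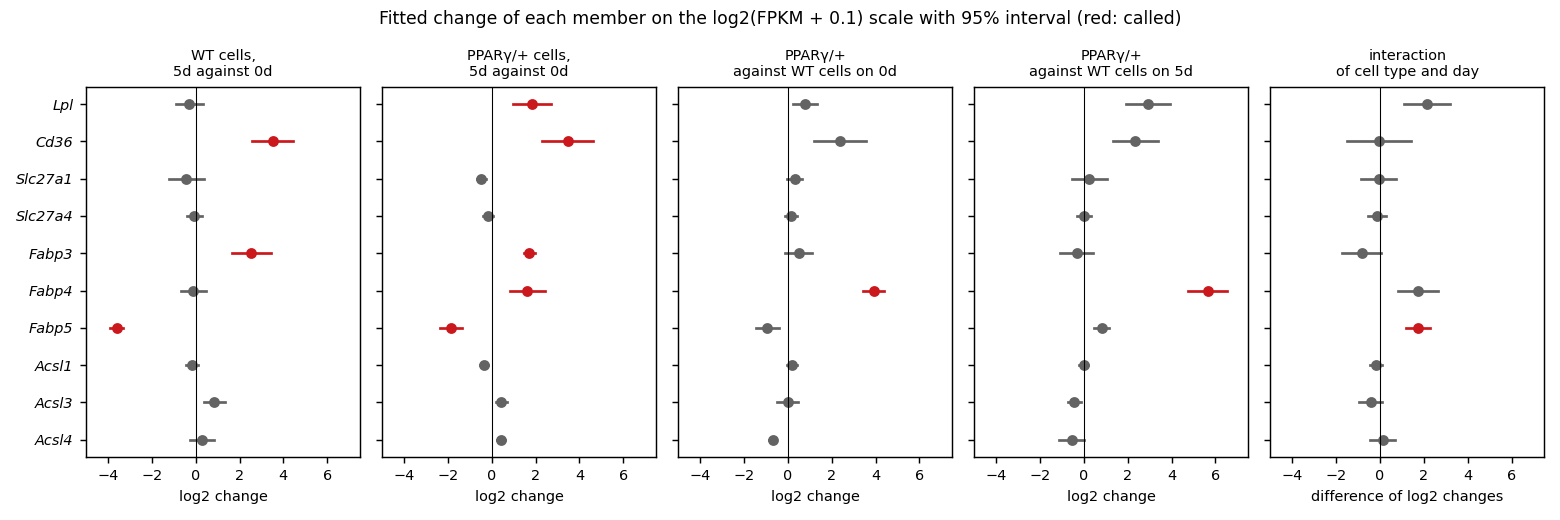
Fitted log2 change of each of the 10 genes in the 5 comparisons with its 95% confidence interval, in red where the gene was called by the rule of that comparison. *Fabp4* is the gene in red between the cell types on both days, and *Fabp5* the one in red in the interaction.

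*Lpl* (ENSMUSG00000015568) encodes the secreted lipase that frees fatty acids from circulating triglycerides. It lies on chromosome 8 at 68880491 to 68907448. Its FPKM was 5.11, 7.22 and 5.31 in WT cells on 0d and 6.39, 3.38 and 4.91 on 5d. In the PPARγ/+ libraries it was 11.5, 7.51 and 11.8 on 0d and 26.1, 28.8 and 65.2 on 5d. The WT libraries of both days overlapped, each PPARγ/+ group lay above the WT group of its day, and replicate 3 of PPARγ/+ cells on 5d was the highest by far. The group means were 5.88 ± 1.17, 4.89 ± 1.51, 10.3 ± 2.40 and 40.1 ± 21.8 FPKM (SD, n = 3) in the WT and then the PPARγ/+ groups, 0d before 5d.

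*Lpl* rose in PPARγ/+ cells from 0d to 5d by a log2 change of 1.85 (95% interval 0.98 to 2.72, adjusted p of limma 0.00582), and by 1.44 without replicate 3 on 5d (adjusted p 0.00572). In WT cells the change was -0.29 (-0.90 to 0.32) and was not called. On 5d the difference between the cell types was 2.92 (1.93 to 3.92, unadjusted p of limma 3.83e-04), and its adjusted p of 0.0798 missed the threshold. Every PPARγ/+ library was higher than every WT library on that day. Without replicate 3 of WT cells on 5d the difference was 2.95, with a higher unadjusted p of 0.00237 and a lower adjusted p of 0.0347. Leaving out that library raised the genes called between the cell types on 5d from 28 to 723, so here and below an adjusted p can fall through the adjustment over all genes and not through the gene itself. Without replicate 3 of PPARγ/+ cells the difference was 2.51 (unadjusted p 3.84e-04, adjusted p 0.165), and without both 2.53 (0.00284 and 0.0690). The interaction was 2.14 (1.09 to 3.19) with an adjusted p of 0.0788, also not called. On 0d the difference was 0.78 (0.25 to 1.32, adjusted p 0.114) with no overlap of the groups.

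*Cd36* (ENSMUSG00000002944) encodes a membrane receptor that binds long-chain fatty acids and eases their entry. It lies on chromosome 5 at 17781690 to 17888801. In WT cells on 0d its libraries held 1, 2 and 1 fragments, and on 5d 201, 79 and 58, which is 2.20, 1.14 and 0.709 FPKM. In PPARγ/+ cells they held 58, 17 and 74 fragments on 0d (0.662, 0.182 and 0.944 FPKM) and 402, 447 and 623 on 5d (5.40, 5.79 and 9.34 FPKM). WT cells on 0d were near 0, WT cells on 5d and PPARγ/+ cells on 0d overlapped, and the 3 PPARγ/+ libraries on 5d were the highest of the 12. Within WT cells on 5d replicate 3 was the lowest, as it was for the muscle markers.

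*Cd36* rose in both cell types. As a ratio of summed fragments per mapped fragment, it stood 84.8-fold higher in WT cells on 5d than on 0d, with a 95% exact binomial interval from 32.8 to 313. In PPARγ/+ cells the ratio was 11.7 (9.92 to 14.0). These intervals cover counting error only, not the spread between libraries, and the wide one reflects the 4 fragments of WT cells on 0d. On the fitted scale the changes were 3.51 (95% interval 2.56 to 4.46, adjusted p of limma 0.00126) and 3.47 (2.30 to 4.64, adjusted p 0.00140), where the added 0.1 limits the first. Without replicate 3 on 5d they were 3.86 in WT cells and 3.23 in PPARγ/+ cells, both called. The interaction of -0.04 (-1.51 to 1.43) was not called and its interval is wide. It became 1.13 with 1 in place of 0.1 added to the FPKM, 0.02 after quantile normalization, -1.82 with 0.01 added and -2.01 with limma-voom on fragments. The ratios of summed fragments also show the larger rise in WT cells. The fitted values do not fix the sign of the interaction.

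Between the cell types, *Cd36* was 34.9-fold higher by summed fragments in PPARγ/+ cells on 0d (13.4 to 130) and 4.84-fold higher on 5d (4.29 to 5.46), and on each day all PPARγ/+ libraries lay above all WT libraries. Neither difference was called, with adjusted p-values of limma of 0.0591 on 0d and 0.120 on 5d. On 0d replicate 2 of PPARγ/+ cells was the lowest of its group, and without it the adjusted p was 0.0329. On 5d the log2 difference was 2.35 (unadjusted p 0.00140). It was 1.997 without replicate 3 of WT cells, where the unadjusted p rose to 0.00328 and the adjusted p fell to 0.0391. It was 2.11 without replicate 3 of PPARγ/+ cells (0.00707 and 0.385) and 1.75 without both (0.00966 and 0.106).

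*Slc27a1* (ENSMUSG00000031808) and *Slc27a4* (ENSMUSG00000059316) encode fatty acid transport proteins, which move long-chain fatty acids across membranes and can also activate them. They lie on chromosome 8 at 71568882 to 71587302 and on chromosome 2 at 29802634 to 29817522. *Slc27a1* stood at 71.0, 55.5 and 50.5 FPKM in WT cells on 0d and at 28.7, 40.2 and 72.3 on 5d. In PPARγ/+ cells it was 65.5, 75.1 and 76.7 on 0d and 52.6, 55.3 and 48.1 on 5d. The WT libraries spread widely on 5d, from the lowest of the 12 in replicate 1 to above every WT library of 0d in replicate 3, and in PPARγ/+ cells every library of 5d was below every library of 0d. That difference was -0.48 (95% interval -0.67 to -0.28, adjusted p of limma 0.00342), under the 2-fold needed for a call. In WT cells it was -0.42 (-1.22 to 0.39), and -0.78 (adjusted p 0.0362) without replicate 3 on 5d. The difference between the cell types on 5d was 0.25 (adjusted p 0.763), and 0.61 (adjusted p 0.0792) without that library or 0.67 (adjusted p 0.161) without replicate 3 of both cell types.

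*Slc27a4* varied little, between 6.84 and 10.4 FPKM over the 12 libraries, and was called in no comparison at any setting tried. Its change in WT cells was -0.05 (-0.41 to 0.30), turning to 0.07 with median-ratio scaling and 0.08 after quantile normalization, and its difference between the cell types on 5d was 0.01 (-0.33 to 0.34), turning to -0.03 with median-ratio scaling. Per length as deposited, *Slc27a1* made up 84.2 ± 1.04% (SD, n = 3) of the summed FPKM of *Slc27a1*, *Slc27a3* and *Slc27a4* in WT cells on 0d, 79.6 ± 8.08% on 5d, 85.4 ± 0.756% in PPARγ/+ cells on 0d and 82.4 ± 1.80% on 5d.

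The fatty acid binding proteins are the cytosolic carriers. *Fabp3* (ENSMUSG00000028773) encodes the heart and muscle form. It lies on chromosome 4 at 130308595 to 130315463, and 80 bases of its exons overlap *Gm10570* and 81 overlap *Zcchc17*, both on the other strand, so fragments of those bases cannot be told apart in libraries whose strand handling is not stated. Its FPKM was 2.69, 2.50 and 1.42 in WT cells on 0d and 19.7, 13.3 and 8.16 on 5d. PPARγ/+ cells had 3.44, 3.03 and 2.78 on 0d and 9.55, 10.9 and 10.6 on 5d. In both cell types every library of 5d was above every library of 0d, and the WT libraries on 5d spread most, with replicate 1 the highest and replicate 3 the lowest.

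*Fabp3* rose by a log2 change of 2.54 in WT cells (95% interval 1.65 to 3.44, adjusted p of limma 0.00317) and 1.72 in PPARγ/+ cells (1.48 to 1.95, adjusted p 4.75e-05). The change in WT cells was 2.87 without replicate 3 on 5d. Its interaction was -0.83 (-1.72 to 0.07, adjusted p 0.463), and -1.15 without replicate 3 of WT cells on 5d (adjusted p 0.102), not called in either. The group means were 2.21 ± 0.689 and 13.7 ± 5.78 FPKM (SD, n = 3) in WT cells and 3.08 ± 0.330 and 10.4 ± 0.710 in PPARγ/+ cells. The differences between the cell types, 0.51 on 0d and -0.32 on 5d, had intervals that held 0. Without replicate 3 of WT cells the latter was -0.64 (adjusted p 0.0918), and -0.66 (adjusted p 0.205) without replicate 3 of both cell types. The processed pseudogene *Fabp3-ps1* stood between 0.175 and 0.711 FPKM over the 12 libraries.

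*Fabp4* (ENSMUSG00000062515) encodes the fat cell form, a classical marker of fat cell differentiation. It lies on chromosome 3 at 10204088 to 10208576. The WT libraries held 3, 1 and 5 fragments on 0d and 1, 2 and 3 on 5d, so no fold change between the days is given. The PPARγ/+ libraries held 218, 186 and 196 fragments on 0d (1.86 ± 0.234 FPKM, SD, n = 3) and 384, 469 and 862 on 5d (4.13, 4.86 and 10.3 FPKM). Every PPARγ/+ library was far above every WT library, and replicate 3 of PPARγ/+ cells on 5d held the most, as it did for *Pparg*, *Lpl*, *Cd36* and the adipocyte markers.

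By summed fragments, *Fabp4* was 62.5-fold higher in PPARγ/+ cells on 0d than in WT cells (95% exact binomial interval 32.7 to 137) and 317-fold higher on 5d (146 to 866), in intervals that cover counting error only. The fitted differences, which depend on the added 0.1, were 3.91 on 0d (3.43 to 4.40, adjusted p of limma 0.00380) and 5.65 on 5d (4.77 to 6.53, adjusted p 0.0166). The call on 0d was kept without any 1 library. It was lost with a replicate block (3.91, adjusted p 0.0878), under which limma called no gene at all between the cell types on either day. That on 5d was lost with the block (log2 difference 5.65, adjusted p 0.122). It was also lost with 1 in place of 0.1 added to the FPKM (2.77, adjusted p 0.0655) and with limma-voom (7.99, adjusted p 0.0645). The call on 5d was kept without replicate 3 of either cell type, at log2 differences of 5.25 without that of PPARγ/+ cells, 5.70 without that of WT cells and 5.31 (adjusted p 0.0416) without both. It was lost without replicate 1 or 2 of PPARγ/+ cells or replicate 1 or 2 of WT cells, where the adjusted p lay between 0.0688 and 0.0921 at log2 differences between 5.58 and 5.90. Over all 6 omissions on 5d the difference lay between 5.25 and 5.90 and the unadjusted p between 2.62e-06 and 7.86e-05. As *Fabp4* passed the filter on low values through its PPARγ/+ libraries alone, these calls describe the gene and are not an independent test. Without that filter *Fabp4* was called on both days (adjusted p 0.00956 and 0.0217).

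Within PPARγ/+ cells *Fabp4* rose further from 0d to 5d, 3.40-fold by summed fragments (3.09 to 3.74). The fitted change was 1.63 (95% interval 0.84 to 2.41, adjusted p of limma 0.00657), and 1.23 without replicate 3 on 5d (adjusted p 0.00324). The interaction of 1.74 (0.81 to 2.67, adjusted p 0.106) was not called. It subtracts a change in WT cells that was fitted on very few fragments and depends on the added 0.1.

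*Fabp5* (ENSMUSG00000027533) encodes the epidermal form, which is also found in fat cells and many dividing cells. It lies on chromosome 3 at 10012548 to 10016607, with a gap of 187480 bases to *Fabp4* on the other strand. Its FPKM was 11.8, 12.04 and 14.8 in WT cells on 0d and 0.936, 1.002 and 0.960 on 5d. PPARγ/+ cells had 9.16, 5.34 and 6.05 on 0d and 1.69, 1.62 and 2.02 on 5d. The 4 groups did not overlap. WT cells were the higher cell type on 0d and the lower on 5d, and replicate 1 of PPARγ/+ cells on 0d was the highest of its group.

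*Fabp5* fell by 3.60 on the log2 scale in WT cells (95% interval -3.89 to -3.30, adjusted p of limma 1.10e-04) and by 1.86 in PPARγ/+ cells (-2.35 to -1.37, adjusted p 5.10e-04). The interaction was 1.74 (1.19 to 2.29, adjusted p 0.0136), which means a smaller fall in PPARγ/+ cells, and it stayed called without any 1 library, between 1.58 and 1.97. Its group means were 12.9 ± 1.65 and 0.966 ± 0.0339 FPKM (SD, n = 3) in WT cells and 6.85 ± 2.03 and 1.78 ± 0.216 in PPARγ/+ cells. Compared day by day, PPARγ/+ minus WT was -0.93 on 0d (-1.45 to -0.41, adjusted p 0.0729) and 0.81 on 5d (0.48 to 1.13, adjusted p 0.107), neither called. Without replicate 1 of PPARγ/+ cells on 0d the first was -1.16 with an adjusted p of 0.0447, and the second was 0.81 without replicate 3 of WT cells on 5d (unadjusted p 0.00284 in place of 9.11e-04, adjusted p 0.0369) and 0.71 without replicate 3 of both cell types (adjusted p 0.101).

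Taken as shares of their summed FPKM, the carriers changed places. *Fabp5* made up 85.0 ± 5.25% (SD, n = 3) in WT cells on 0d, and *Fabp3* 92.5 ± 3.13% on 5d. In PPARγ/+ cells on 0d *Fabp5* made up 57.4 ± 4.78%, *Fabp3* 26.6 ± 3.50% and *Fabp4* 16.0 ± 2.41%. On 5d *Fabp3* made up 57.0 ± 9.41% and *Fabp4* 33.3 ± 10.2% there. These shares depend on the length by which fragments are divided. The FPKM rest on 4489 bases for *Fabp4* and 3567 for *Fabp5*, while their longest coding transcripts hold 896 and 987 bases, and *Fabp3* has 823 on both scales. Per kilobase of the longest coding transcript, *Fabp4* was the leading carrier in PPARγ/+ cells on 5d at 63.5 ± 9.45%, ahead of *Fabp3* at 22.7 ± 6.47%. In these cells on 0d *Fabp4* (25.5 ± 3.79%) also lay above *Fabp3* (8.47 ± 1.36%), the reverse of their order by FPKM. On that scale *Fabp5* made up 95.05 ± 1.72% in WT cells on 0d and *Fabp3* 77.5 ± 7.96% on 5d, so the order in WT cells was the same on both scales. A ratio of summed fragments of 1 gene does not depend on its length, while a fitted change from low values does, through the added 0.1.

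**Figure D3:**
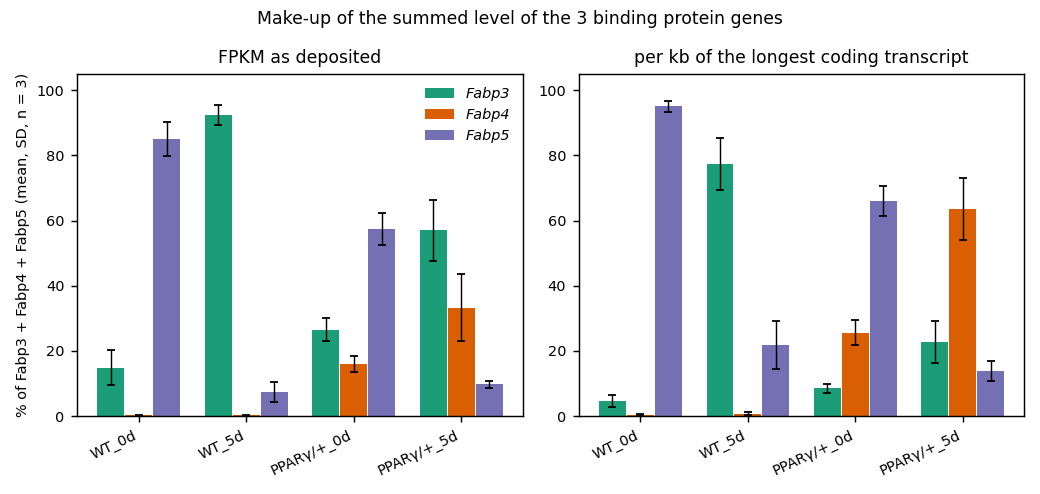
Share of *Fabp3*, *Fabp4* and *Fabp5* in their summed level in each group (bars: mean of 3 libraries from 0%, error bars: SD), by deposited FPKM on the left and per kilobase of the longest coding transcript on the right. In WT cells *Fabp5* leads on 0d and *Fabp3* on 5d on both scales, while in PPARγ/+ cells on 5d the leading gene is *Fabp3* on the left and *Fabp4* on the right.

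*Acsl1* (ENSMUSG00000018796), *Acsl3* (ENSMUSG00000032883) and *Acsl4* (ENSMUSG00000031278) encode long-chain acyl-CoA synthetases, and *Acsl4* prefers arachidonic acid. They lie on chromosome 8 at 46471037 to 46536051, chromosome 1 at 78657825 to 78707743 and chromosome X at 142317993 to 142390535. The exons of *Acsl1* share 1039 bases with *Gm45244* on the other strand, and those of *Acsl3* share 244 with *Utp14b* on the same strand. None of the 3 was called by limma in any of the 5 comparisons, and their changes under 2-fold are given next as measured.

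*Acsl3* stood at 19.8, 24.0 and 32.9 FPKM in WT cells on 0d and 52.8, 44.3 and 39.9 on 5d. Their counterparts in PPARγ/+ cells were 22.4, 28.4 and 24.1 on 0d and 36.2, 34.0 and 31.0 on 5d. In both cell types the libraries of 5d lay above those of 0d without overlap, and on 5d every WT library lay above every PPARγ/+ library. The log2 change was 0.86 in WT cells (95% interval 0.37 to 1.34, adjusted p of limma 0.0176) and 0.44 in PPARγ/+ cells (0.20 to 0.68, adjusted p 0.0115). The first missed the call by its size alone and passed at 1.05 without replicate 3 of WT cells on 0d. The interaction was -0.42 (-0.94 to 0.10), and the difference between the cell types was -0.01 on 0d and -0.43 on 5d (-0.72 to -0.14, adjusted p 0.2496), or -0.52 (adjusted p 0.0472) without replicate 3 of WT cells and -0.46 (adjusted p 0.128) without that of both cell types.

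*Acsl4* stood at 13.3, 14.3 and 14.0 FPKM in WT cells on 0d and 23.7, 17.4 and 12.006 on 5d. In PPARγ/+ cells it was 8.90, 8.07 and 8.57 on 0d and 11.9, 10.7 and 11.998 on 5d. All PPARγ/+ libraries lay below the WT libraries of their day, and replicate 3 of WT cells on 5d came nearest. The difference between the cell types was -0.70 on 0d (95% interval -0.85 to -0.54, adjusted p of limma 0.0101), under 2-fold, and -0.56 on 5d (-1.15 to 0.03), or -0.81 (adjusted p 0.0374) without replicate 3 of WT cells and -0.84 (adjusted p 0.116) without that of both cell types. The change in PPARγ/+ cells was 0.43 (0.26 to 0.60, adjusted p 0.00261), again under 2-fold, and in WT cells 0.30 (-0.26 to 0.86), or 0.55 (adjusted p 0.0334) without replicate 3 on 5d.

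*Acsl1*, the form best known from fat cells, heart and liver, lay between 3.04 and 4.31 FPKM over the 12 libraries. Its standard deviation within groups, pooled over them, was 0.08 on the log2 scale, beside 0.21 for the median gene. In PPARγ/+ cells every library of 5d was below every library of 0d, by -0.36 (95% interval -0.54 to -0.18, adjusted p of limma 0.00774), under 2-fold. In WT cells the change was -0.17 (-0.44 to 0.10), and between the cell types the difference was 0.18 on 0d and -0.01 on 5d, both with intervals that held 0.

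Within each group the genes varied to different degrees. The pooled standard deviation was 0.66 for *Cd36*, 0.48 for *Lpl* and 0.41 for *Fabp3* on the log2 scale. By mean FPKM over the 12 libraries, the order per length was *Slc27a1* (57.6), *Acsl3* (32.5), *Lpl* (15.3), *Acsl4* (12.9), *Slc27a4* (8.72), *Fabp3* (7.34), *Fabp5* (5.61), *Acsl1* (3.57), *Cd36* (2.20) and *Fabp4* (2.09). *Lpl* owed its place to the PPARγ/+ libraries on 5d, and by the median of the libraries it (7.37) lay below *Acsl4* (12.002) and *Slc27a4* (8.72). This order pools groups that differ and does not hold within each of them. In WT cells on 0d, for example, the mean of *Fabp5* (12.9) lay above that of *Lpl* (5.88). Per kilobase of the longest coding transcript the order by the mean was *Slc27a1* (57.6), *Acsl3* (35.8), *Lpl* (25.3), *Fabp5* (20.3), *Acsl4* (13.2), *Fabp4* (10.5), *Slc27a4* (9.49), *Acsl1* (8.65), *Fabp3* (7.34) and *Cd36* (2.32). The places of *Fabp4* and *Fabp5* thus depend on the length, as does the order of *Acsl1* and *Fabp3*. By mean FPKM, *Slc27a1* lay above 96.1% of the genes tested and *Fabp4* above 44.0%. The ranges over the libraries of neighbours in the order by FPKM overlapped in every case, as for *Cd36* (0.0120 to 9.34) and *Fabp4* (0.00875 to 10.3).

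Other genes of the pathway were taken from lists written by function. Counts called in these lists and the marker lists are to be read beside the shares of all genes tested. These shares were 16.5% in WT cells, 15.2% in PPARγ/+ cells, 1.59% on 0d, 0.155% on 5d and 0.760% in the interaction. Among the partners of lipoprotein lipase, 8 of 13 were tested and *Lmf2*, a homologue of the lipase maturation factor, was the most abundant. *Angptl4*, which encodes a secreted inhibitor of the lipase, stood at 5.84, 8.19 and 7.39 FPKM in WT cells on 0d and 5.96, 8.06 and 11.1 on 5d. PPARγ/+ cells had 15.0, 13.2 and 19.6 on 0d and 28.9, 30.3 and 43.9 on 5d. As with *Lpl*, the PPARγ/+ libraries were above the WT libraries on both days and replicate 3 on 5d was the highest. *Angptl4* rose in PPARγ/+ cells by a log2 change of 1.10 (95% interval 0.62 to 1.58, adjusted p of limma 0.00429), a call that was lost by size at 0.91 (adjusted p 0.0119) without replicate 3 on 5d, and it was higher than in WT cells on 0d by 1.14 (0.69 to 1.60, adjusted p 0.0355).

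In the same list 2 of 8 were called in WT cells, *Vldlr*, a lipoprotein receptor, up by 2.53 and *Lmf2* down by a log2 change of -1.0045. In PPARγ/+ cells 2 of 8 were called, *Angptl4* and *Vldlr*, the latter up by 1.72. Mean *Lmf2* went from 59.2 to 29.5 FPKM in WT cells and from 60.9 to 32.9 in PPARγ/+ cells, where it was not called. On 0d 2 of 8 were called between the cell types, *Angptl4* as higher and *Lipg*, which encodes endothelial lipase, as lower in PPARγ/+ cells (-1.35, adjusted p of limma 0.0376). None of the 8 was called by limma on 5d or in the interaction, where 1 and 2 had an unadjusted p under 0.05. On 5d the difference of *Angptl4* was 2.04 (adjusted p 0.0719), and the groups did not overlap. It was called without replicate 3 of WT cells (2.27, adjusted p 0.0126) and without that of both cell types (2.08, adjusted p 0.0422).

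Among the other long-chain and very long-chain acyl-CoA synthetases 3 of 4 were tested, and *Acsl5* was the most abundant. *Acsbg1*, the bubblegum form, stood at 5.52, 5.16 and 5.86 FPKM in WT cells on 0d and 0.458, 0.489 and 0.329 on 5d. PPARγ/+ cells had 3.22, 2.96 and 2.94 on 0d and 2.64, 2.88 and 4.09 on 5d. It was low in all 3 WT libraries of 5d alone. *Acsbg1* fell by 3.43 on the log2 scale in WT cells (95% interval -3.84 to -3.02, adjusted p of limma 1.74e-04), was higher in PPARγ/+ cells on 5d by 2.64 (2.10 to 3.19, adjusted p 0.0378) and was called in the interaction at 3.48 (2.95 to 4.005, adjusted p 2.58e-04). The call on 5d was lost without replicate 3 of PPARγ/+ cells (2.46, adjusted p 0.122) and kept without that of both cell types (2.32, adjusted p 0.0416).

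*Acsl5* fell by 1.31 on the log2 scale in WT cells and by 1.19 in PPARγ/+ cells, and *Acsl6* rose by 2.72 and 1.45 from low values. Without replicate 3 of WT cells on 5d limma called *Acsl6* as lower in PPARγ/+ cells on 5d (-2.38, adjusted p 0.00743, in place of -1.83) and in the interaction (-1.83, adjusted p 0.0432, in place of -1.28). Without that of both cell types it called the first alone (-2.33, adjusted p 0.0459). All 3 of these synthetases were called in WT cells, 2 of 3 in PPARγ/+ cells, 0 on 0d by limma (1 at an unadjusted p under 0.05), and *Acsbg1* alone on 5d and in the interaction. Per length as deposited, *Acsl5* made up 49.4 ± 0.882% (SD, n = 3) of the summed FPKM of the 5 *Acsl* genes in WT cells on 0d, then 20.3 ± 5.19% on 5d, while *Acsl3* stood at 29.7 ± 3.25% and 53.8 ± 0.832%. In PPARγ/+ cells *Acsl5* made up 54.3 ± 6.22% and 28.8 ± 1.04%, and *Acsl3* 30.3 ± 5.51% and 49.3 ± 2.16%. By group means the leading gene was the same on the scale of the longest coding transcript, where *Acsl5* made up 37.8 ± 0.718% and *Acsl3* 33.8 ± 3.69% in WT cells on 0d and *Acsl3* 55.3 ± 0.602% on 5d. On that scale *Acsl3* led in replicate 3 of WT cells and replicate 2 of PPARγ/+ cells on 0d, so the order on 0d was not the same in every library.

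The remaining lists are given by their counts and by the genes called. Of the other lipid-binding proteins 4 of 12 were tested, with *Crabp2* the most abundant. *Crabp2* (1.17) was among those up in WT cells, and *Crabp1*, on at most 6 fragments, among those up in PPARγ/+ cells. Of the thioesterases, which split acyl-CoA, 7 of 9 were tested, with *Acot7* the most abundant. *Acot7* was down and *Acot11* up in WT cells (-1.64 and 2.18) and in PPARγ/+ cells (-1.18 and 1.68), and *Acot1* was down in PPARγ/+ cells (-1.09, and -0.81 without replicate 3 on 5d, where the call was lost). Of the other uptake and acyl-CoA binding genes 11 of 13 were tested, with *Got2* and *Cav1* the most abundant. None of the 11 was called by limma in WT cells, where 5 had an unadjusted p under 0.05 with less than a 2-fold difference, and in PPARγ/+ cells *Mfsd2a* (1.32) and *Acbd7*, on at most 5 fragments, were up and *Scarb1* (-1.20) was down. Mean *Scarb1* went from 4.90 to 2.07 FPKM in PPARγ/+ cells and from 4.78 to 2.47 in WT cells. No gene of these 3 lists was called by limma between the cell types on either day or in the interaction. At an unadjusted p under 0.05 the lipid-binding proteins, the thioesterases and the uptake genes counted 1, 2 and 7 on 0d, 1 each on 5d, and 1, 1 and 3 in the interaction. Of the other fatty acid transport proteins 1 of 4 was tested, *Slc27a3*, and limma called it in no comparison (unadjusted p under 0.05 in 1, on 0d).

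In the marker lists, 7 of 8 muscle genes were called up in WT cells and 8 of 8 in PPARγ/+ cells, and *Des* was lower in PPARγ/+ cells on 0d. On 5d limma called 0 of the 8 between the cell types (4 at an unadjusted p under 0.05). Without replicate 3 of WT cells 7 of 8, all but *Myod1*, were called as lower in PPARγ/+ cells on 5d, beside 4.01% of all genes. Without that of both cell types *Myog*, *Mymk*, *Myh3*, *Ckm*, *Des* and *Tnnt3* were called as lower, beside 1.52%. *Des* was also called up in WT cells without their replicate 3 on 5d. The 4 adipocyte genes tested, *Adipoq*, *Plin1*, *Cidec* and *Cfd*, passed the filter through PPARγ/+ libraries alone, so their values are a description and not a test. Of the macrophage list *Lyz2* was called up in both cell types and higher in PPARγ/+ cells on 0d. The log2 change of *Cd68* was -0.66 in WT cells (adjusted p of limma 0.0675) and -0.44 in PPARγ/+ cells (adjusted p 0.0152), under 2-fold and without overlap of the days. Of the endothelial list none was called by limma, nor had an unadjusted p under 0.05.

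The 2 genes with the most similar profile to each of the 10 were found among 11681 genes with a mean of at least 1 FPKM, by the root mean square difference of centred log2 values over the 12 libraries. *Fabp4* was nearest to *Adipoq* and *Parm1* (0.75 each, beside its own spread of 2.48). *Lpl* was nearest to *Hrct1* (0.47) and *Angptl4* (0.50, beside 1.21), and *Cd36* to *Rarres2* (0.74) and *Col15a1* (0.83, beside 2.18). *Fabp5* was nearest to *Krt13* and *Mcm3* (0.29 each, beside 1.44), and *Fabp3* to *Usp2* (0.29) and *Mmp15* (0.31, beside 1.14). *Acsl3* was nearest to *Zeb1* (0.16) and *Plpp1* (0.18, beside 0.40), and *Acsl4* to *Pvr* (0.10) and *Tbc1d1* (0.11, beside 0.42). *Acsl1* was nearest to *Fopnl* and *Tbc1d25* (0.06 each, beside 0.16). *Slc27a1* was nearest to *Slc36a1* and *Trmt1* (0.13 each, beside 0.40), and *Slc27a4* to *Tango2* and *Diablo* (0.08 each, beside 0.16). A small difference means less for a gene whose own spread is small.

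The 250 bases before each RefSeq start were searched in the windows of GRCm38.p6, which hold 10 windows for 7 of the 10 genes among 32851 in all. *Fabp4*, *Fabp5* and *Lpl* have no window. Not every window lies before the annotated span of its gene. Windows of *Acsl1*, *Cd36* and *Slc27a1* lie inside it, 1 of *Slc27a1* with 102 annotated exon bases. That of *Fabp3* lies partly inside, with 250 exon bases of *Fabp3* and *Gm10570*. PPARγ binds with RXR to a direct repeat of AGGTCA with 1 base between, and myogenic factors bind the E-box CANNTG. Both strands were searched, with at most 2 mismatches in the 12 letters of the repeat and none in the E-box. The repeat was in 3.24% of all windows and the E-box in 66.2%. Of the 7 genes *Cd36* alone had a repeat, with 2 mismatches on the strand opposite to the gene, from 63 to 51 bases before the start. Its sequence is shown because *Cd36* rose in both cell types and lay higher in every PPARγ/+ library than in the WT libraries of its day. The window is chr5:17835897-17836146 on the minus strand, inside the annotated span of the gene but outside its annotated exons, and the capitals mark the repeat with its spacer.
Cd36: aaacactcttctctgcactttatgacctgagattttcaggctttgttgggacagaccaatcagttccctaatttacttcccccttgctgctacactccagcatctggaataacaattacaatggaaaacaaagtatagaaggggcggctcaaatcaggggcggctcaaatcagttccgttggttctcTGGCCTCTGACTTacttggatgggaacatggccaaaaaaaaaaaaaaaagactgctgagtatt
An E-box was in at least 1 window of each of the 7 genes, with 4 over the 3 windows of *Slc27a1*. A match is a description of letters, not a site that was shown to be bound. Protein sequences were not analysed here.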

How the data were processed

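RNA of 12 C2C12 libraries was measured by Illumina sequencing. According to the methods, the authors trimmed reads with Trim Galore, aligned them to GRCm38 with STAR, counted them on Ensembl genes with HTSeq and deposited FPKM (the labels list mm9 and STAR, without versions). The GRCm38 annotation matched the deposited values, since multiplying FPKM by length and mapped fragments gave whole fragments (within 0.001) for 21058 genes at the annotated length and 6079 at an inferred one, with 1 left over. The length was the annotated one for 7 of the 10 genes and inferred for *Lpl*, *Slc27a1* and *Acsl1*. The authors also deposited log2 values, log2(FPKM + 1), which differed from the FPKM table by at most 5.3e-14 and were not analysed further.

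The tests used limma 3.58.1 (empirical Bayes with a trend, R 4.3.3) on log2(FPKM + 0.1), with Benjamini-Hochberg adjustment over all 18023 genes tested. Each comparison of 2 groups used its own 6 libraries and the interaction used all 12. Libraries with the same replicate number were not paired in the fit. Tables, intervals and figures were made with Python 3.11.15, numpy 2.4.6, pandas 2.3.3, scipy 1.17.1 and matplotlib 3.10.9. The fits and the recovery of fragments were tested on simulated data. The floor for a fold change is 3 fragments in a library. The libraries of *Cd36* in WT cells on 0d lay under it, so its ratios over that group rest on 4 summed fragments. The ratios of *Fabp4* over WT cells rest on 9 summed fragments on 0d and 6 on 5d.

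The 10 genes, the lists and the rules for naming genes were chosen with earlier results of these data known. The text names the 10 genes, *Pparg*, the muscle markers, from each list the genes called in any comparison and the most abundant one, and the 2 genes most alike to each of the 10. One called gene is not reported here. Other genes of the marker lists were named after their values were seen.

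Results were recomputed with 1 or 0.01 added to the FPKM, with all 27138 genes above 0, with the 12290 genes that reached an FPKM of 1, and with median-ratio scaling, quantile normalization, all 12 libraries in one fit, array weights, a replicate block, limma-voom on recovered fragments, other call rules and each library left out in turn. Leaving out both 5d libraries numbered 3, the scale per longest coding transcript, the ratios of summed fragments, and the omissions and block for genes other than the 10 were chosen after seeing the data.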

Additional observations from a re-analysis of the deposited data

Results flagged for a closer look

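*Fabp5* changed by different amounts in WT and PPARγ/+ cells during differentiation, by a test of that difference. The interaction was 1.74 on the log2 scale (95% interval 1.19 to 2.29, adjusted p of limma 0.0136), where *Fabp5* fell by 3.60 in WT cells and by 1.86 in PPARγ/+ cells. The WT group means were 12.9 and 0.966 FPKM on 0d and 5d, and those of PPARγ/+ cells 6.85 and 1.78. Of the 10 genes it is the one whose interaction was called. Groups of 3 libraries were not tested for outlying samples.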

How the results depend on the processing

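Of 870 values of the 10 genes under alternatives, 815 kept their direction and their side of the threshold, 17 became called, 8 lost a call and 30 changed sign. None of those that changed sign was called. In WT cells the count of genes called from 0d to 5d was 3 in every alternative except 4 with an adjusted p and no minimum fold change. That rule changed both the p and the fold (37.1% of all genes, or 6681, beside 1441 to 3404 genes in the others). With 1 library left out the count lay between 3 and 4, beside 15.3% to 17.0% of all genes. In PPARγ/+ cells it was 5, or 9 with an adjusted p and no minimum fold change (47.5% of all genes, beside 6.89% to 18.4%). It was 5 without any 1 library, beside 14.1% to 15.7% of all genes.

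On 0d the count between the cell types was 1. It was 2 with a pseudocount of 0.01, a filter at an FPKM of 1, all 12 libraries in one fit, limma-voom or an unadjusted p (*Cd36* was added), with array weights (*Fabp5* was added) and without a minimum fold change (*Acsl4* was added), and 1 to 2 with 1 library left out. Over all genes the alternatives with 2 called between 1.70% and 3.75%, and those with 1 library left out between 0.305% and 0.760%. On 5d it was 1 and became 0 with a pseudocount of 1, beside 0.0444% of all genes. At that setting 5 had an unadjusted p of limma under 0.05, and *Fabp4* had an adjusted p of 0.0655. The count was 3 with all 12 libraries in one fit, array weights or an unadjusted p (*Cd36* and *Lpl* were added), beside 1.10%, 3.27% and 3.36% of all genes. It was 0 to 3 with 1 library left out, beside 0.00555% to 4.01% of all genes, and 1 with both libraries numbered 3 left out, beside 1.52%. limma-voom also called 1, beside 0.233% of all genes, but *Lpl* (adjusted p 0.0428) in place of *Fabp4* (0.0645). The adjusted p of *Fabp4* on 5d with 1 library left out lay between 0.00735 and 0.0921. In the interaction the count was 1, and was 3 with array weights or an unadjusted p (*Fabp4* and *Lpl* were added, beside 4.75% and 12.01% of all genes). It was 1 without any 1 library. That stood beside 2.92% of all genes without replicate 3 of WT cells on 5d and 0.233% without that of PPARγ/+ cells. The cause was not tested, except that the unadjusted p and, between the cell types, the absence of a minimum fold change are looser rules. Within a cell type the rule without a minimum fold change also took an adjusted p, which is stricter.

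With a replicate block the counts were 3, 5, 0 and 0 in the comparisons of 2 groups in the order above. They stood beside 16.8%, 15.3%, 0% and 0% of all genes. Under the block the interaction count was 1, beside 0.338%. On 0d and 5d limma then called 0 of the 10 genes between the cell types (*Fabp4* at an adjusted p of 0.0878 and 0.122), with 5 at an unadjusted p under 0.05 on each day. It called 0 of all 18023 genes on either day, *Pparg* included (adjusted p 0.0588 and 0.0911), with 15.3% and 11.1% at an unadjusted p under 0.05. Paired numbering found no ground in the data, since 0 of 12 pairs with the same number correlated over 0.1 (-0.07 to 0.08). In 5 of these 12 pairs the own number correlated best, among them every pair of PPARγ/+ cells between 0d and 5d.

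The values that changed sign were these. The change of *Slc27a4* in WT cells was 0.074 with median-ratio scaling, 0.077 after quantile normalization and 0.084 with array weights, and -0.14 to 0.084 with 1 library left out. Between the cell types on 5d it was -0.027 with median-ratio scaling, -0.13 with array weights, -0.20 with both libraries numbered 3 left out and -0.13 to 0.094 with 1 left out. With 1 library left out, *Acsl3* lay between -0.18 and 0.19 on 0d, and on 5d *Acsl1* between -0.054 and 0.023 and *Slc27a1* between -0.055 and 0.61. The interaction of *Cd36* was 1.13 with a pseudocount of 1, 0.0196 after quantile normalization and -0.59 to 0.36 with 1 library left out. That of *Slc27a1* was 0.00329 with array weights, 0.36 with both libraries numbered 3 left out and -0.36 to 0.30 with 1 left out, and that of *Acsl4* -0.15 with both left out and -0.12 to 0.37 with 1 left out. The cause was not tested.

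Median-ratio scaling moved the median log2 change of all genes from -0.08 to 0.02 in WT cells and from -0.10 to 0.02 in PPARγ/+ cells, so changes of about 0.1 depend on the scaling. Depth limits *Fabp4* in WT cells and *Cd36* in WT cells on 0d, which rest on 1 to 5 fragments a library.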
